A study of Caenorhabditis elegans with 12 samples.

Results

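The C-type lectin genes of Caenorhabditis elegans carry the symbol clec- followed by a number, and every gene ID with such a symbol in the WBcel235 annotation was taken as a member of the family. This gave 240 members among the 46904 gene IDs in the deposited tables, all annotated as protein-coding. The 240 gene IDs carry 237 symbols, since clec-15, clec-209 and clec-249 each stand on 2 gene IDs.

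RNA came from whole animals at day 1 of adulthood, in 12 paired-end mRNA libraries, 3 for each of 4 genotypes. The genotypes were the wild type N2, daf-2(e1370) in strain CF1041, pfd-6(gk493446) in strain IJ462 and the double mutant pfd-6(gk493446); daf-2(e1370) in strain IJ485. The daf-2 gene encodes the insulin/IGF-1 receptor, whose reduction extends lifespan, and pfd-6 encodes a subunit of prefoldin, a chaperone that hands unfolded actin and tubulin to the chaperonin. Each genotype was represented by 1 strain. The series title places prefoldin between heat shock factor 1 and FOXO in longevity. Per the labels' protocol, all animals were raised on control RNA interference bacteria to the L4 stage and then moved to plates with FUdR, which blocks progeny production, seeded with bacteria for control or pfd-6 RNA interference. The series' design text instead mentions hsf-1 RNA interference beside control bacteria, for daf-2 alone. The plates behind each library are not labelled, and any difference in them cannot be told apart from genotype.

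C-type lectins are proteins with a shared fold that in some members binds sugars with the help of calcium. In C. elegans the family is unusually large, and many members are predicted to be secreted. Transcripts of several members are known to rise in the intestine on infection, and some act downstream of the p38 MAP kinase PMK-1 or of the insulin pathway's FOXO factor DAF-16, so the family is often read as part of innate immunity. For most members no function is known.

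Total counts per library ran from 19394046 to 41009125, and the family took 0.352% to 0.705% of them. Levels are given in CPM, counts scaled to sequencing depth, and errors as SD over the 3 libraries of a genotype. The targeted gene pfd-6 averaged 111 ± 28.9 CPM in N2 and 101 ± 50.1 CPM in daf-2, against 13.9 ± 6.53 CPM in pfd-6 mutants and 15.9 ± 1.32 CPM in double mutants. 2 libraries stood apart from the rest. Ribosomal protein genes held 1.41% of counts in daf-2 replicate 3 and 0.609% in pfd-6 replicate 3, against 9.33% to 15.9% in the other libraries. Sperm markers stood high in the double mutant, with summed levels of 325.7 to 840.8 CPM over the list, against 30.97 to 150.8 in N2, 17.88 to 43.96 in daf-2 and 28.21 to 104.5 in pfd-6. All animals were profiled whole, so fewer cells of a type and less RNA per cell cannot be told apart.

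Most of the family was scarce in these adults. Of the 240 members, 226 had a count in at least 1 library, 111 had one in all 12 libraries, and 14 had none. The filter on low counts kept 116 members, and only these were tested. The 124 others averaged at most 0.235 CPM over the 12 libraries, the level of clec-25. Among the tested members 14 exceeded 100 CPM, 22 lay between 10 and 100 CPM, 43 between 1 and 10 CPM and 37 at or under 1 CPM. Without correction for length, the 2 members with most counts held 36.2% of the family's CPM and the first 10 held 74.3%.

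Per kilobase of exon, the most abundant transcript was clec-87, at a mean of 1204 CPM per kb over all libraries. It was followed by clec-63 at 791, clec-50 at 360, clec-1 at 349, clec-88 at 324, clec-52 at 217 and clec-91 at 209 CPM per kb. The other places among the first 10 went to clec-65 at 185 CPM per kb and to clec-209, whose pair of gene IDs each held 193 CPM per kb. None of these passed the test in any contrast. Exons of clec-87, clec-88 and clec-91 overlap those of iars-2, ctsa-4.1 and ZK858.8, and the labels do not say whether reads were counted by strand, so their counts may hold reads of those genes. The neighbours clec-49 and clec-50 had fractional counts in all 12 libraries, as reads shared between similar genes give, so their levels are uncertain.

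Several of these abundant transcripts differed more between libraries of a genotype than between genotypes. In N2 replicates 1, 2 and 3, clec-63 stood at 1244, 1688 and 619.6 CPM, and in daf-2 at 1123, 1204 and 67.7 CPM. In pfd-6 it stood at 719, 1213 and 69.4 CPM and in the double mutant at 1414, 1616 and 1329 CPM. The low values were thus in the third libraries of daf-2 and of pfd-6, both poor in ribosomal protein transcripts; the part of that in the clec-63 values was not tested. The same libraries were lowest for clec-87, at 483 and 172 CPM, against 1367 to 1528 CPM in N2. For clec-52 the low library was another: N2 replicate 3 held 1.24 CPM against 232.9 and 234.6 CPM in the other N2 libraries.

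**Figure D1:**
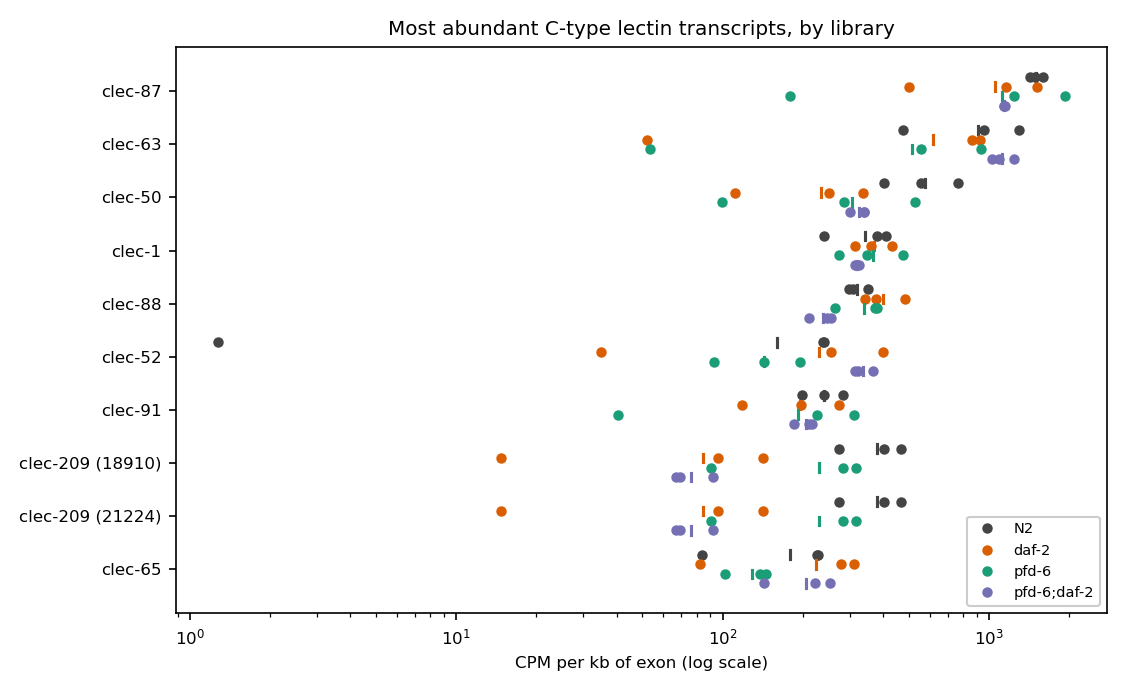
Levels of the 10 most abundant members in CPM per kb of exon on a log scale, with 1 point per library and the 4 genotypes in colour. The libraries of a genotype spread widely for clec-63 and clec-52, while clec-1 and clec-88 lie close together in all genotypes.

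The members with a known part in infection were described next, beginning with those linked to Staphylococcus aureus. Transcripts of clec-60, which rises on S. aureus infection, stood at 0.234, 0.164 and 0.207 CPM in N2 and at 1.52, 0.710 and 1.07 CPM in daf-2. In pfd-6 they stood at 0.518, 0.756 and 0.0549 CPM and in the double mutant at 4.48, 4.89 and 13.1 CPM. Both daf-2-bearing genotypes lay above their counterpart without daf-2(e1370) in every library. The rise from pfd-6 to the double mutant passed the test (log2 fold change 4.09, SE 0.74, edgeR quasi-likelihood adjusted p = 0.0152), and was lost without pfd-6 replicate 1 (0.0519) or double mutant replicate 3 (0.0765). The difference between N2 and daf-2 did not pass (log2 fold change 2.42, edgeR adjusted p = 0.226). Its chromosome II neighbour clec-61, induced by the same infection, rose in the double mutant against pfd-6 too (log2 fold change 4.08, edgeR adjusted p = 0.0443). These clec-61 counts were few, 33 over the double mutant libraries and 2 over pfd-6, a ratio of levels of 19.5 with an exact 95% counting interval of 4.98 to 168. Neither clec-52 nor clec-70 nor clec-86, also studied in S. aureus infection, passed the test in any contrast, and clec-71 was too low to test.

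Of the members controlled by the PMK-1 pathway in Pseudomonas aeruginosa infection, clec-4 changed and clec-67 and clec-85 did not pass in any contrast. Transcripts of clec-4 stood at 8.13, 8.15 and 12.7 CPM in N2, at 8.996, 20.2 and 5.52 CPM in daf-2, at 2.20, 3.36 and 5.16 CPM in pfd-6 and at 31.4, 38.4 and 19.5 CPM in the double mutant. The double mutant was highest and pfd-6 lowest, with no overlap between them (log2 fold change 3.06, SE 0.52, edgeR adjusted p = 0.0112). From N2 to pfd-6 the difference in clec-4 was -1.43 on the log2 scale and did not pass (edgeR adjusted p = 0.614). Levels of clec-67 averaged 146 ± 117, 97.0 ± 66.7, 137 ± 59.2 and 175 ± 48 CPM in N2, daf-2, pfd-6 and the double mutant. Those of clec-85 averaged 186 ± 109, 268 ± 199, 127 ± 91.5 and 321 ± 15.3 CPM in the same order.

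Among members studied with other microbes, clec-49, which takes part in defence against Serratia marcescens, averaged 41.1 ± 8.94 CPM in N2 and 11.9 ± 4.19 CPM in daf-2, with no overlap, but missed the threshold (log2 fold change -1.78, edgeR adjusted p = 0.0636). The related clec-39 had at most 1 count in a library. Transcripts of clec-41, studied in Bacillus thuringiensis infection, averaged 331 ± 215, 250 ± 44.9, 701 ± 480 and 410 ± 64.7 CPM in N2, daf-2, pfd-6 and the double mutant and passed no test. Both clec-42, studied with the same bacterium, and clec-38, known from axon outgrowth, were below the filter.

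Setting daf-2 against N2 asks what reduced insulin/IGF-1 signalling does to the family. In daf-2 animals clec-10, clec-190 and clec-232 fell and clec-15 and clec-76 rose, which is 5 of 116 tested members against 0.934% of all 15090 tested genes. By direction the 2 rises stand against 0.716% of all genes and the 3 falls against 0.219%.

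Transcripts of clec-10 stood at 12.8, 15.7 and 14.6 CPM in N2 and at 0.0338, 0.0646 and 0.0631 CPM in daf-2, which is 5 counts over the daf-2 libraries. The fall was the steepest of any tested member in this contrast (log2 fold change -7.94, SE 0.52, edgeR adjusted p = 3.25e-05). For clec-190 the N2 libraries held 20.6, 15.2 and 22.2 CPM and the daf-2 libraries 2.40, 1.29 and 1.80 CPM (log2 fold change -3.40, SE 0.44, edgeR adjusted p = 0.00294). Both genes separated the genotypes by far more than the libraries of a genotype differed. Transcripts of clec-232 were scarce, at 0.886, 0.491 and 0.759 CPM in N2 and 0.0338, 0 and 0.0315 CPM in daf-2. That is 60 counts against 2, a ratio of levels of 33.2 with a 95% counting interval of 8.79 to 280 (edgeR adjusted p = 0.00522).

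The rise in clec-76 went from 0.130, 0.164 and 0 CPM in N2 to 1.76, 2.91 and 5.80 CPM in daf-2 (log2 fold change 4.90, SE 0.74, edgeR adjusted p = 0.00726). The gene clec-15 has 2 gene IDs of equal exon length on chromosome I (12631185 to 12632555 and 12635172 to 12636542), and in some libraries their counts were shared out evenly. Summed over both copies it stood at 0.938, 0.884 and 0.0690 CPM in N2 and at 93.7, 77.3 and 12.9 CPM in daf-2. All daf-2 libraries thus lay above all N2 libraries. The test was passed by the second copy (WBGene00010399; log2 fold change 6.83, SE 1.06, edgeR adjusted p = 0.00958) and not by the first (WBGene00011584; edgeR adjusted p = 0.590), and which copy the reads came from cannot be told apart.

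Beyond the calls, 14 tested members had all daf-2 libraries above all N2 libraries, against 10.6% of all genes, and 22 had all of them below, against 7.65%. The median log2 difference over the tested members was -0.40, against 0.03 over all tested genes. Marker lists had medians of -0.612 (intestine), -0.615 (muscle), -0.601 (cuticle), -0.582 (oocyte), -0.132 (pharynx), -1.616 (sperm), 0.113 (neuron) and 0.348 (embryo). The family's summed levels were 6531, 6552 and 2629 CPM in daf-2 replicates 1, 2 and 3, against 4735 to 8507 CPM in N2. The part of these differences in the family's median was not tested. Differences over 2-fold were found in 42.2% of members and 15.5% of all genes, which were not matched for level. The group of 22 lower members held abundant ones. Transcripts of clec-50 averaged 605 ± 192 CPM in N2 and 245 ± 120 CPM in daf-2, which did not pass (edgeR adjusted p = 0.453). The copies of clec-209 held identical values and stood together at 831.6, 717.4 and 488.1 CPM in N2 and at 253.4, 171.1 and 26.3 CPM in daf-2, which did not pass either (edgeR adjusted p = 0.204). With the replicate number as a block, 9 members passed, 3 higher and 6 lower, against 1.68% of all genes, and clec-18, clec-205, clec-3 and clec-49 were those added. The call on clec-15 was lost without N2 replicate 2 (edgeR adjusted p = 0.0849) and that on clec-76 without N2 replicate 1 (0.0626); the other 3 calls stood in all 12 such fits.

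**Figure D2:**
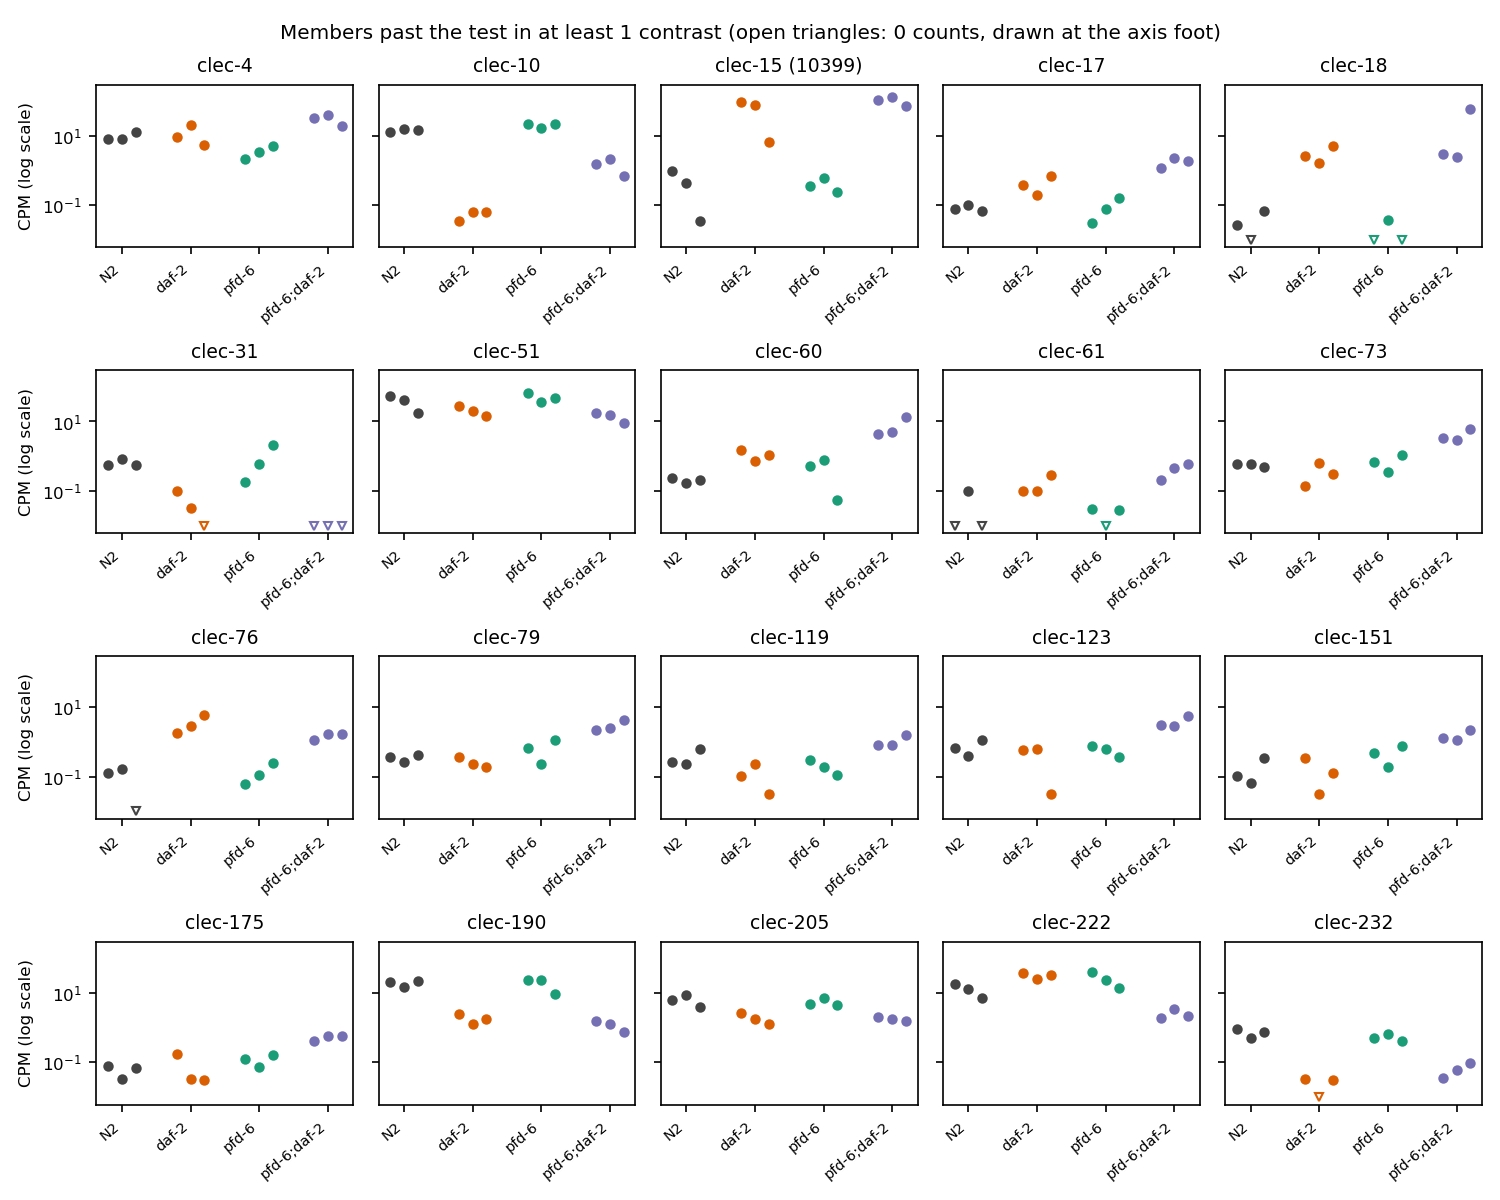
Levels in CPM on a log scale for the 20 members past the test in at least 1 contrast, with 1 point per library in N2, daf-2, pfd-6 and pfd-6;daf-2; open triangles mark 0 counts. For clec-10, clec-190 and clec-232 both genotypes with daf-2(e1370) lie below both without it, and for clec-15, clec-17, clec-18 and clec-76 above.

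The same mutation was compared in animals that also carried pfd-6(gk493446), as the double mutant against pfd-6. Here 15 of 116 tested members passed, 8 higher and 7 lower, against 3.29% of all genes (2.29% higher and 1% lower). Besides clec-60, clec-61 and clec-4, the rises were in clec-15, clec-17, clec-18, clec-73 and clec-76, and the falls in clec-10, clec-31, clec-51, clec-190, clec-205, clec-222 and clec-232. In 33 members every double mutant library lay above every pfd-6 library, against 14.7% of all genes, and in 26 every one lay below, against 13.9%. Over 2-fold differences were found in 51.7% of tested members and 21.4% of all genes, while the medians were near 0 in both, at 0.03 and -0.02. All genes were not matched to the members for level, and 37 of the 116 members lay at or under 1 CPM. The part of level in these shares was not tested.

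The lectin clec-10 stood at 21.2, 17.2 and 21.5 CPM in pfd-6 and at 1.48, 2.07 and 0.688 CPM in double mutants (log2 fold change -3.80, edgeR adjusted p = 0.00158). Transcripts of clec-190 stood at 23.8, 23.2 and 9.41 CPM in pfd-6 and at 1.52, 1.24 and 0.737 CPM in double mutants (log2 fold change -3.999, edgeR adjusted p = 0.00179). Neither gene's genotypes overlapped. The clec-15 copies together rose from 0.702, 1.21 and 0.466 CPM to 110, 130 and 71.4 CPM, with no overlap, and WBGene00010399 again passed (log2 fold change 8.04, edgeR adjusted p = 0.00467).

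Transcripts of clec-17 rose from 0.0305, 0.0756 and 0.165 CPM in pfd-6 to 1.16, 2.26 and 1.92 CPM in double mutants (log2 fold change 4.21, edgeR adjusted p = 0.00757). For clec-18 the pfd-6 libraries held 1 count in all and the double mutant libraries 3.07, 2.41 and 57.5 CPM. Its ratio of levels came to 1577, with a 95% counting interval of 282.5 to 62318 (edgeR adjusted p = 0.00925). Replicate 3 of the double mutant thus held most of the clec-18 counts, yet the other double mutant libraries also lay above all pfd-6 libraries. Without it the ratio came to 260.2 (interval 46.1 to 10340) and the test was still passed (edgeR adjusted p = 0.00842). The same library held 17.9 CPM of clec-128, against 0.211 and 0.248 CPM in the other double mutant libraries. That gene had no count in N2 or pfd-6 and was at least 195-fold higher in the double mutant than in pfd-6, taking the floor as 3 counts over the pfd-6 group, but did not pass the test (edgeR adjusted p = 0.0769). Without double mutant replicate 3 that bound was 7.32-fold; clec-128 was picked out after its values were seen.

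Of the other falls, clec-222 went from 41.2, 24.04 and 13.5 CPM in pfd-6 to 1.87, 3.34 and 2.11 CPM in double mutants (log2 fold change -3.42, edgeR adjusted p = 0.00476). Transcripts of clec-31 stood at 0.183, 0.605 and 2.11 CPM in pfd-6 and at 0 in all double mutant libraries, at least 26.1-fold lower against a floor of 3 counts over the group (edgeR adjusted p = 0.0283). Its fitted log2 fold change of -7.84 depends on the prior count and is no bound. The remaining falls were in clec-232 (-2.95), clec-51 (-1.83), whose exons overlap those of faah-1, and clec-205 (-1.64), and the remaining rises in clec-76 (3.34) and clec-73 (2.52), all as log2 fold changes. The count of 15 fell to 9 without pfd-6 replicate 1 and to 8, 8 and 7 without double mutant replicates 1, 2 and 3. The share of all genes called fell too, from 3.29% to 1.21%, 0.811%, 1.04% and 0.795% in these fits. In all 12 fits that left out 1 library, clec-4, clec-10, clec-15, clec-17, clec-18, clec-190 and clec-222 passed. Of the others, clec-60 passed in 10 of these fits, clec-31 in 9, clec-76 and clec-232 in 8, clec-73 in 5, clec-51 and clec-61 in 3 and clec-205 in 2. For clec-31 the call was lost when any one double mutant library was left out, at an edgeR adjusted p of 0.0802 to 0.0871.

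Set side by side, the daf-2 effects in the 2 backgrounds share no library. All 5 members called in daf-2 against N2 were also called in the double mutant against pfd-6, in the same direction, which is 5 of 5 of the first list and 5 of 15 of the second. Both tests came from the same fit of all 12 libraries, with the same estimate of each gene's spread, so the calls are not independent. Over all tested genes 79 were called in both, 78 of them in the same direction, from 141 and 497 in the single lists. Of the 15 members, 13 had the same sign in both, the exceptions being clec-222 and clec-73, as had 332 of the 497 genes. Over all tested members the sign was the same for 74 of 116 (63.8%), and over all tested genes for 40.7%. The log2 fold changes of the members had a Pearson correlation of 0.68 across genes, against 0.15 over all genes, and a Spearman correlation of 0.48 against -0.14. Genes are not independent replicates, and same-numbered libraries of daf-2 and pfd-6, which enter the 2 comparisons on opposite sides, deviated together, with correlations of 0.749, 0.655 and 0.704 over all genes; the part of that in these values was not tested.

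**Figure D3:**
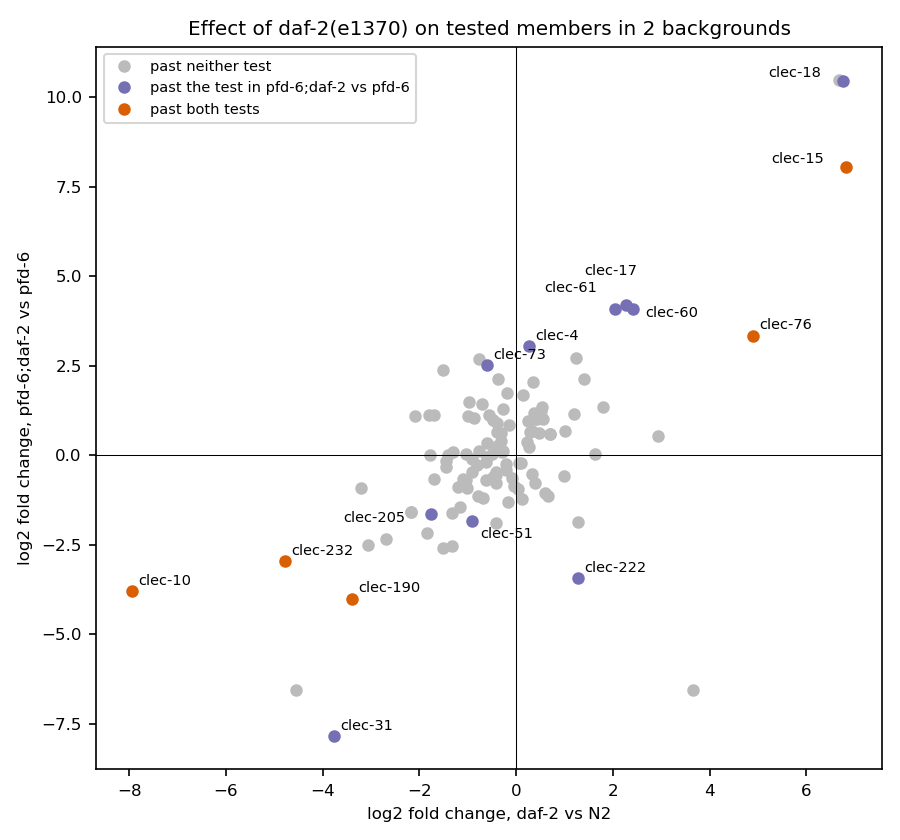
Each point is 1 of the 116 tested members, with its log2 fold change in daf-2 against N2 on the horizontal axis and in pfd-6;daf-2 against pfd-6 on the vertical axis. Members past both tests lie at the lower left and upper right, and clec-222 lies apart at the lower right.

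In 11 of 116 tested members both daf-2-bearing genotypes lay above their counterpart in every library, against 2.45% of all tested genes, and in 11 below, against 1.17%. Those above were clec-8, clec-15, clec-17, clec-18, clec-56, clec-60, clec-75, clec-76, clec-80, clec-82 and clec-128. Those below were clec-3, clec-10, clec-27, clec-31, clec-43, clec-89, clec-163, clec-190, clec-204, clec-205 and clec-232. The members not described elsewhere are named as an account of these counts, after their values were seen.

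Next, pfd-6 was set against N2, for the prefoldin mutation alone. No tested member passed the edgeR test, while 0.0994% of all genes did (0.0928% higher and 0.00663% lower). At an unadjusted p under 0.05 there were 11 of 116 members, against 6.93% of all genes. DESeq2 called 2 members (clec-48 and clec-5), against 0.205% of all genes, and limma-voom 0, against 0.113%. The smallest p belonged to clec-5, which stood at 14.01, 12.97 and 7.32 CPM in N2 and at 72.5, 44.3 and 28.2 CPM in pfd-6 (log2 fold change 2.07, edgeR adjusted p = 0.178). Its genotypes did not overlap. Next came clec-48, at 24.9, 45.1 and 27.3 CPM in N2 and 3.08, 14.6 and 4.01 CPM in pfd-6 (log2 fold change -2.17, edgeR adjusted p = 0.614); without pfd-6 replicate 2 it passed (0.0218). All pfd-6 libraries lay above all N2 libraries in 5 members, against 4.71% of all genes, and below them in 7, against 2.74%. The median log2 difference was -0.17 in the family and 0.04 over all genes.

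Setting the double mutant against daf-2 asks what the prefoldin mutation does when insulin signalling is low. Of 116 tested members 8 passed, against 3.11% of all genes: clec-10, clec-73, clec-79, clec-119, clec-123, clec-151 and clec-175 rose, 7 against 2.73% of all genes, and clec-222 fell, 1 against 0.384%. Of these, clec-10 rose from the daf-2 values given above to 1.48, 2.07 and 0.688 CPM (log2 fold change 4.62, edgeR adjusted p = 0.00508), still below every N2 library. Transcripts of clec-222 fell from 38.4, 24.8 and 32.02 CPM to 1.87, 3.34 and 2.11 CPM (log2 fold change -3.70, edgeR adjusted p = 0.0133). In neither gene did the genotypes overlap.

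The other rises were in scarce transcripts. For clec-73 the daf-2 libraries held 0.135, 0.646 and 0.315 CPM and the double mutant libraries 3.42, 2.91 and 5.99 CPM (log2 fold change 3.47, edgeR adjusted p = 0.0187). For clec-79 they held 0.372, 0.226 and 0.189 CPM and 2.26, 2.60 and 4.27 CPM (log2 fold change 3.51, edgeR adjusted p = 0.0187). N2 and pfd-6 lay near daf-2 for both genes, with at most 1.15 CPM in any library. Transcripts of clec-123 averaged 0.407 ± 0.325 CPM in daf-2 and 3.84 ± 1.53 CPM in the double mutant, and those of clec-151 averaged 0.166 ± 0.157 and 1.54 ± 0.582 CPM. Those of clec-119 averaged 0.120 ± 0.0985 and 1.08 ± 0.469 CPM, and those of clec-175 averaged 0.0776 ± 0.0792 and 0.523 ± 0.0883 CPM. In these 6 genes the double mutant was the highest genotype, with every library above every library of the other genotypes. They were picked by their rise against daf-2, which fixes part of this pattern. The share of all genes with the same pattern is not given here.

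The double mutant was also the genotype with high sperm markers. Of 40 tested members of that list, 29 rose against daf-2, where 2.73% of all genes did, with a median log2 difference of 4.61, and none of the list was at 0 in all libraries. Against pfd-6, 9 of the 40 rose, where 2.29% of all genes did, with a median of 3.38. Cuticle markers had summed levels of 5947 to 6956 CPM in the double mutant and of 362.6 to 3119 CPM in daf-2. The part of these transcripts in the rises of clec-73, clec-79, clec-119, clec-123, clec-151 and clec-175 was not tested. Over the whole family 24 members had all double mutant libraries above all daf-2 libraries, against 14.4% of all genes, and 6 below, against 14.2%; the median log2 difference was 0.18, against -0.07 over all genes. The count of 8 was sensitive to single libraries, as was the share of all genes called. Without daf-2 replicates 1, 2 and 3 the count was 0, 2 and 0, against 0%, 0.0776% and 0% of all genes. Without double mutant replicates 1, 2 and 3 it was 2, 4 and 1, against 0.154%, 1.44% and 0.0388%. Without N2 replicates 1 and 2 it was 5 and 4, against 2.16% and 2.01%. By gene, clec-10 passed in 10 of 12 such fits, clec-222 in 9, clec-73 and clec-79 in 7, clec-119 in 5, clec-123 in 4, clec-151 in 3 and clec-175 in 2. With the replicate number as a block, 10 members passed, against 5.39% of all genes.

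The interaction subtracts the effect of daf-2(e1370) in otherwise wild-type animals from its effect in pfd-6 mutants. It passed for 2 of 116 tested members, clec-222 lower and clec-10 higher, against 0.139% of all genes (0.0265% higher and 0.113% lower). From N2 to daf-2, clec-222 went from 18.3, 13.4 and 7.39 CPM to 38.4, 24.8 and 32.02 CPM, and from pfd-6 to the double mutant it fell as given above. The difference of the log2 effects was -4.70 (SE 0.65, edgeR adjusted p = 0.0111). For clec-10 both effects were falls, of -7.94 and -3.80, and their difference was 4.14 (SE 0.61, edgeR adjusted p = 0.0192). The next members, clec-4 (2.80), clec-119 (3.90) and clec-73 (3.14), did not pass. The call on clec-222 was lost without N2 replicate 2 (edgeR adjusted p = 0.0504) and without double mutant replicate 1 (0.0590). The call on clec-10 held in 4 of the 12 fits that left out 1 library, with adjusted p up to 0.0840. It was lost when any one N2 or daf-2 library, pfd-6 replicate 2 or double mutant replicate 1 was left out. Over the family the median was 0.45, against -0.12 over all genes.

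**Figure D4:**
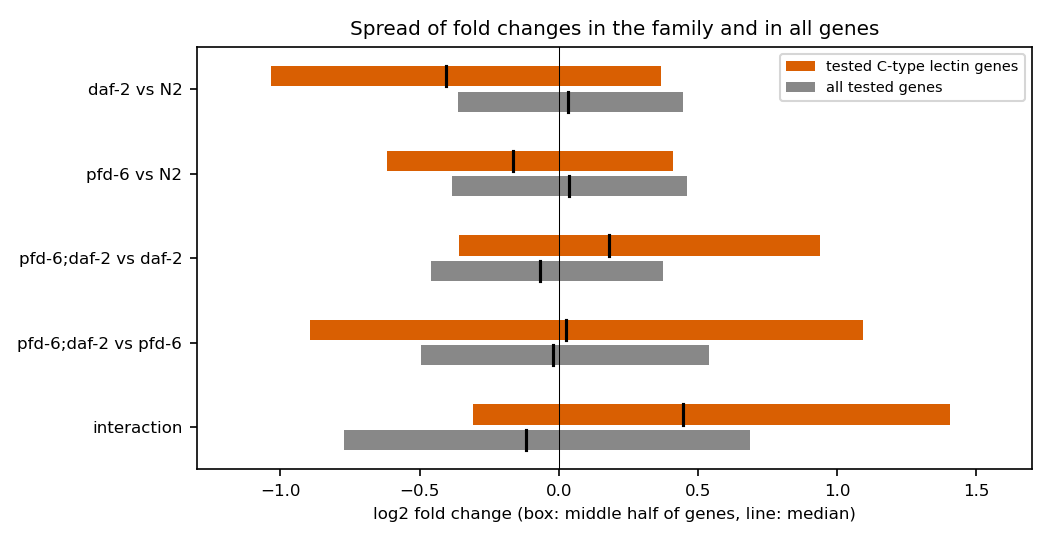
For each contrast, bars span the middle 50% of log2 fold changes of the 116 tested members and of all 15090 tested genes, with the median as a line. The family's bar is wider than that of all genes in all 5 contrasts, and its median in daf-2 against N2 is -0.40. All genes are not matched to the members for level.

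The members lie close together in the genome, and neighbours did not always move alike. Of the 240, 164 stood in 49 runs of members less than 20 kb apart, and 86 were on chromosome V. Of the 20 members called in at least 1 contrast, 14 lay in runs, from 76 tested there, and 6 lay alone, from 40 tested. The share of all genes called in at least 1 contrast is not given here, and genes outside the family were not split this way. A run of 12 on chromosome IV (3922165 to 4014235, WBcel235) holds clec-67, clec-73, clec-76 and clec-79. In it clec-76 was raised in both daf-2-bearing genotypes, clec-73 and clec-79 in the double mutant, and clec-67 passed in no contrast. The member next to clec-222, clec-223, averaged 19.4, 19.9, 27.3 and 14.2 CPM in N2, daf-2, pfd-6 and the double mutant and was not called either.

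In the longest run, 13 members on chromosome V from 16839121 to 16869840, the summed counts of the 8 genes at one end split by the daf-2 allele. These are clec-35, clec-27, clec-31, clec-22, clec-32, clec-24, clec-28 and clec-33, grouped after their values were seen, and only clec-27 and clec-31 passed the filter. Their summed counts were 73, 88 and 18 in N2, 3, 4 and 3 in daf-2, 23, 72 and 197 in pfd-6 and 3, 1 and 0 in the double mutant. Scaled to depth, the sums averaged 2.01 ± 0.825, 0.108 ± 0.0183, 2.94 ± 2.36 and 0.0456 ± 0.0543 CPM. In the sum both genotypes with daf-2(e1370) lay below both without it in every library. The members did not share equally in this. Summed by genotype over N2, daf-2, pfd-6 and the double mutant, clec-31 held 55, 4, 99 and 0 counts, while clec-32 held 2, 1, 8 and 1 and gave no clear split. The 5 members before them, clec-40, clec-25, clec-36, clec-26 and clec-37, averaged 3.22 ± 1.67, 1.44 ± 0.518, 2.82 ± 2.01 and 2.29 ± 0.754 CPM in sum. These 5 gave no such split.

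**Figure D5:**
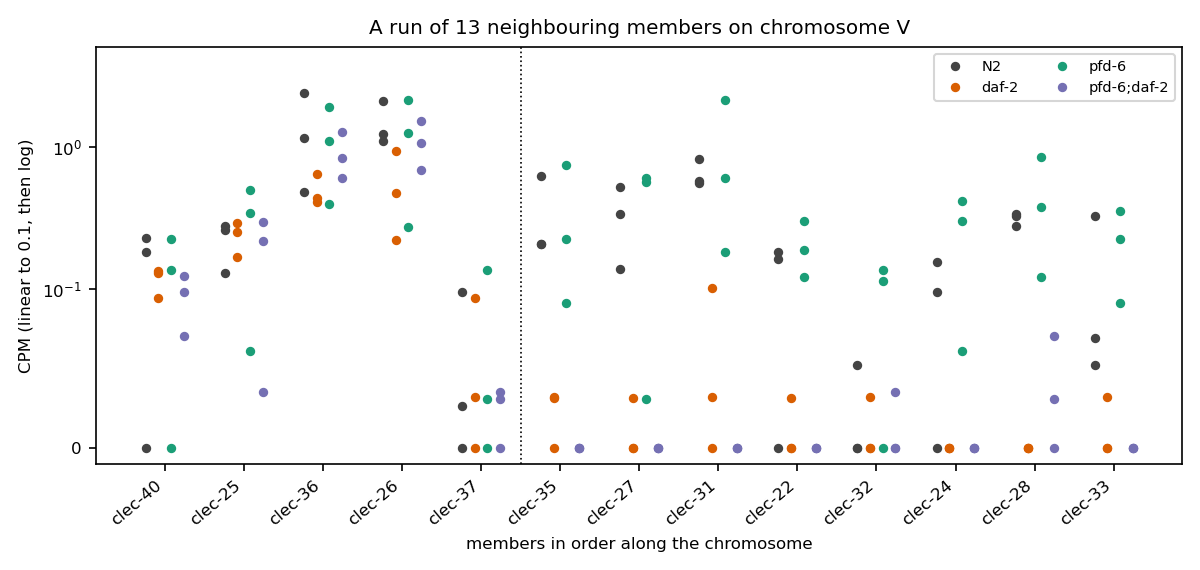
Level in CPM of the 13 neighbouring members on chromosome V, in their order along the chromosome, with 1 point per library and the 4 genotypes in colour; the axis is linear to 0.1 and logarithmic above. To the right of the dotted line most daf-2 and pfd-6;daf-2 points lie at or near 0, and to the left the genotypes mix.

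The genes beside the called members were read as context. Within 25 kb of the 20 called members lay 88 tested genes outside the family. Of these 2 passed in daf-2 against N2 (0.934% of all genes), 5 rose and 4 fell in the double mutant against pfd-6 (2.29% and 1%), and 4 rose and 1 fell against daf-2 (2.73% and 0.384%). Some moved with the member beside them and some did not. Beside clec-190 on chromosome IV, M199.9 averaged 1.60, 0.0331, 1.56 and 0.0456 CPM in N2, daf-2, pfd-6 and the double mutant, and fell in the double mutant against pfd-6 (edgeR adjusted p = 0.0385). The gene beside the second clec-15 copy, WBGene00010400, averaged 0.0153, 5.15, 0.00508 and 2.90 CPM. It rose in the double mutant against pfd-6 (edgeR adjusted p = 0.0452) and missed the threshold in daf-2 against N2 (0.0835). WBGene00011585, beside the first clec-15 copy, rose in the double mutant against pfd-6 as well (edgeR adjusted p = 0.0303). WBGene00011585 and WBGene00010400 had 1.5 counts each in N2 and 0.5 each in pfd-6, as reads shared between similar genes give. Which of them the reads came from cannot be told apart, and both are among the 5 rises. Near clec-232, which fell, oac-20 (log2 fold change -2.55) and sru-22 (-5.02) fell in the double mutant against pfd-6, whereas F36G9.7 rose in daf-2 against N2 (4.02). Near clec-205, which fell in the double mutant against pfd-6, F36H9.5 rose (2.03). The tested genes within 25 kb of clec-10, among them dnsn-1 and C24H12.4, passed in none of the comparisons of daf-2 with N2 and of the double mutant with pfd-6 and daf-2.

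Immune genes outside the family were set beside it. In 32 immune signalling genes (kinases, receptors and transcription factors), edgeR called 0 in each of the 5 contrasts, against 0.0994% to 3.29% of all genes. At an unadjusted p under 0.05 there were 3 in the double mutant against daf-2, 3 against pfd-6, 2 in the interaction and 0 in the other contrasts. Of all 15090 tested genes, 2265, 3073 and 2627 had such a p there, and 1518 and 1045 in daf-2 and pfd-6 against N2. DESeq2 and limma-voom each called 1 in the double mutant against daf-2, where they called 6.07% and 3.28% of all genes, and 0 elsewhere.

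Of 60 tested immune effectors outside the family, 5 passed in daf-2 against N2, where 0.934% of all genes did. The list was chosen with earlier results of these data known, so the count describes these genes only. The saposin-like spp-9 rose (log2 fold change 7.47), while the invertebrate-type lysozyme ilys-5 (-9.44), dod-22 (-4.07), dod-24 (-4.39) and the saposin-like spp-4 (-2.24) fell. In the double mutant against pfd-6, 3 effectors rose and 7 fell, against 2.29% and 1% of all genes. Those 5 passed again with the same signs, at 8.92 for spp-9, -6.87 for ilys-5, -4.76 for dod-22, -3.68 for dod-24 and -2.21 for spp-4. With them passed ilys-3 (4.44), fipr-23 (4.40), cnc-2 (-5.40), irg-5 (-3.05) and lys-6 (-2.82). Median log2 differences over the effectors were 0.07 in daf-2 against N2 and -0.05 in the double mutant against pfd-6. No effector passed edgeR in pfd-6 against N2, in the double mutant against daf-2 or in the interaction. There 3, 4 and 4 had an unadjusted p under 0.05, against 1045, 2265 and 2627 of all 15090 tested genes. DESeq2 called 0, 2 and 0, against 0.205%, 6.07% and 2.96% of all genes. Limma-voom called 0, 1 and 0, against 0.113%, 3.28% and 0.139%.

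A separate family of sugar-binding proteins, the galectins (lec- genes), had 12 tested members and 0 edgeR calls in the 5 contrasts. At an unadjusted p under 0.05 it had 1 in daf-2 against N2, 0 in pfd-6 against N2 and 3 in each of the other contrasts. Of all 15090 tested genes, 1518 and 1045 had such a p in daf-2 and pfd-6 against N2. In the double mutant against daf-2 and pfd-6 and in the interaction, 2265, 3073 and 2627 did. DESeq2 called 1 in the double mutant against daf-2 and 1 in the interaction, against 6.07% and 2.96% of all genes. Limma-voom called 0 in all, against 0.113% to 4.07% of all genes.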

How the data were processed

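Paired-end mRNA libraries of whole day 1 adults were grouped by the genotype in their labels, 3 per genotype. The authors deposited expected counts per gene for each library, not scaled to depth, per the file headers. Tools named in the submitters' processing notes, without their order or role, are RSEM 1.3.1, HISAT2 2.0.5, R 3.1.3, limma 3.24.15 and StringTie 1.3.3, and the builds WBcel235 and ce11; strandedness is not given in the sources used here. The labels' protocol says that 2 of the 3 biological repeats were sequenced first and the last later, without naming the number. This batch was thus not fitted as such. A replicate block takes it in only if the late repeat has the same number in every genotype. Replicates are called biological in that protocol, with no more on their cultures.

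Members were found by symbol through the Ensembl release 115 annotation of WBcel235, which gave positions and exon lengths. Members, gene lists and tests were chosen with earlier results of these data known. Expected counts were rounded, filtered with filterByExpr (15090 genes kept), scaled by TMM and fitted in edgeR 4.0.16 (R 4.3.3) with genotype as covariate, using quasi-likelihood tests with Benjamini-Hochberg adjustment over all tested genes and a threshold of 0.05. CPM are TMM-scaled. The test was checked on simulated counts. Fold bounds take 3 counts over a group as the floor; intervals and floors cover counting error only. Alternatives were DESeq2 1.42.0, limma-voom (limma 3.58.1), RLE size factors, no filter, a threshold of 0.01, the compared groups alone, a replicate block and libraries left out.

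Replicate numbers were checked as pairs through the correlation of their deviations from their genotype's mean. For N2 with daf-2 (0.453, 0.271 and 0.31) and daf-2 with the double mutant (0.315, 0.211 and 0.137) every correlation exceeded 0.1, so the blocked count stands beside those comparisons where it moves; the pairing comes from these values, not from the labels. All libraries of a genotype differed beyond sampling noise, with a chi-square of at least 21.7 per degree of freedom.

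Named genes were all members past the threshold in any contrast, the 5 with the smallest p in each, the 10 most abundant per kb and those with a known role. Sequence features were not analysed here.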

Additional observations from a re-analysis of the deposited data

Results flagged for a closer look

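The daf-2 effect differed between the wild-type and pfd-6 backgrounds, by the test of the difference itself, in 2 members. For clec-222 the effect in pfd-6 mutants less the effect in otherwise wild-type animals was -4.70 on the log2 scale (SE 0.65, edgeR adjusted p = 0.0111). Its level was 2.44 ± 0.789 CPM in the double mutant and above 7 CPM in every library of the other genotypes. For clec-10 the same difference was 4.14 (SE 0.61, edgeR adjusted p = 0.0192), with falls of -7.94 in the wild-type background and -3.80 in the pfd-6 background; its daf-2 libraries held 5 counts in all.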

How the results depend on the processing

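No called log2 fold change of a named member changed sign under any setting tried. The 38 gene and contrast pairs gave 751 values over the alternative fits, which the pairs share. Of these values, 611 kept their side of the threshold, 134 lost the call and 6 gained one. The counts of called members moved more. DESeq2 called 12 in daf-2 against N2 (5 by edgeR), 2 in pfd-6 against N2 (0), 13 in the double mutant against daf-2 (8), 25 against pfd-6 (15) and 7 in the interaction (2), where limma-voom called 1. Of all genes DESeq2 called 2.66%, 0.205%, 6.07%, 8.55% and 2.96%, more than edgeR in each. With the replicate number as a block, daf-2 against N2 gave 9 (1.68% of all genes). The double mutant gave 10 against daf-2 (5.39%) and 32 against pfd-6 (9.91%). For pfd-6 with the double mutant the same-numbered libraries' deviations correlated at 0.299, 0.049 and 0.019 and for N2 with pfd-6 at 0.345, 0.034 and 0, so there the numbers were not taken as pairs. The block ended no call. Replicates 1 and 2 alone gave 9 in daf-2 against N2, 3 in the double mutant against daf-2 and 0 in the interaction. The shares of all genes there were 1.36%, 0.965% and 0.0399%. With the third libraries of daf-2 and pfd-6 both left out, the counts were 7, 0, 6, 21 and, in the interaction, 1. The shares of all genes were then 1.46%, 0.0988%, 1.07%, 3.86% and 0.112%. A threshold of 0.01 kept all 5 in daf-2 against N2, where the largest edgeR adjusted p among them was 0.00958. It left 1 in the double mutant against daf-2, 6 against pfd-6 and 0 in the interaction. The share of all genes at that threshold is not given here. Leaving out 1 library at a time, the counts ran from 4 to 7 in daf-2 against N2 and 0 to 1 in pfd-6 against N2. They ran from 0 to 11 and 7 to 20 in the double mutant against daf-2 and against pfd-6, and 0 to 2 in the interaction. Shares of all genes ran 0.265% to 1.62%, 0.0581% to 0.104%, 0% to 4.65%, 0.795% to 5.18% and 0.0772% to 0.149%, in that order. The cause was not tested beyond fewer libraries or a stricter threshold. Depth limits the scarce members: 3 counts over a genotype came to 0.0313 to 0.0370 CPM, and 124 members were too low to test.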
